A study of Homo sapiens with 6 samples.

Results

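The HOXC and HOXD genes were examined as a contrast to the HOXA and HOXB genes in OCI-AML3, a human cell line established from acute myeloid leukemia (AML) with a mutation in NPM1 (mtNPM1). The 10 genes were given by name: HOXC4, HOXC6, HOXC8, HOXC9 and HOXC10 of the HOXC cluster and HOXD3, HOXD4, HOXD8, HOXD9 and HOXD10 of the HOXD cluster, out of 39 HOX genes and of 20162 protein-coding gene records on GRCh37 and 19675 on GRCh38. A peak was counted at a gene when it overlapped the gene body by at least 1 bp or lay within 1 kb of its start. Transfection was with sgNeg, a control guide RNA, or with sgNpm1A, which is directed at mtNPM1. Cells were kept for 3 days per the labels, whereas the study's text gives a longer time. Each guide RNA had 1 library for acetylation of a lysine of histone H3 (H3K27Ac) and 1 for trimethylation of another (H3K4me3), giving 4 peak lists, and 2 input samples were not analysed here. With 1 library per group there was no replicate, so no spread could be estimated, no test was made, and what is compared is always 1 library with 1 library. Whether NPM1 was edited cannot be read from a list of peaks.

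HOX genes encode homeodomain transcription factors that give cells positional identity along the body axis and in the limbs. Mammals keep them in the HOXA, HOXB, HOXC and HOXD clusters, where genes of the same number are paralogs and the order on the chromosome follows the order of expression in the embryo. Blood progenitors use mainly HOXA and HOXB genes, and AML with mtNPM1 is known for high expression of those genes together with MEIS1, a cofactor that binds DNA beside HOX proteins. H3K27Ac marks active enhancers and promoters, and H3K4me3 marks the promoters of active genes and of many CpG-rich promoters. HOX genes that a cell type does not use are typically held silent by Polycomb proteins, which deposit a different mark that was not measured here.

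The lists held 327715 peaks for sgNeg H3K27Ac, 317059 for sgNpm1A H3K27Ac, 353628 for sgNeg H3K4me3 and 106641 for the matching sgNpm1A library. Coordinates placed the H3K27Ac lists on GRCh37 and the H3K4me3 lists on GRCh38, so positions were compared only within a mark. Peaks lay within 1 kb of the start of 69.8% of coding genes in sgNeg H3K27Ac and 32.3% in sgNpm1A H3K27Ac, and of 64.6% and 7.66% in the H3K4me3 lists. Start peaks were thus fewer across the genome in the sgNpm1A lists, and the part of this shift in any HOX result was not tested. Of the 7 myeloid marker genes (SPI1, CEBPA, CD33, MPO, CSF3R, LYZ and CSF1R), all 7 had a sgNeg H3K27Ac start peak, against 3 of 4 T cell, 3 of 4 B cell, 1 of 4 erythroid and 2 of 4 epithelial markers. The highest percentile of a marker peak was 99.97 for the myeloid genes and 96.6 for the highest of the other lists. In sgNpm1A H3K27Ac the order differed. There 3 of the 7 myeloid genes had a start peak, against 1 of 4 T cell, 3 of 4 B cell, 1 of 4 erythroid and 0 of 4 epithelial markers, and the highest percentile was 95.6 for myeloid, 98.1 for B cell and 97.9 for epithelial markers. For sgNeg H3K4me3, 4 of the 7 myeloid genes had a start peak. Of the T cell, B cell, erythroid and epithelial markers 2, 0, 1 and 2 of 4 had one. In sgNpm1A H3K4me3 the numbers were 1 of 7, and 1, 0, 0 and 1 of 4. NPM1 itself had a start peak in both sgNeg lists, with a highest fold of 13.3 for H3K27Ac and 11.6 for H3K4me3, and no start peak in either sgNpm1A list. The names of the H3K27Ac lists carry a tag that those of the H3K4me3 lists lack, and its meaning was not stated.

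Some stretches of DNA carry what follows. The first 3 are promoters in RefSeq's promoter table on GRCh38.p14, 300 bases on the + strand that end shortly after the gene start, and they are shown because no H3K4me3 peak of either list lay within 1 kb of their starts and because they range from below to above the median of coding promoters in CG content. They span chr12:54016638-54016937 for HOXC4, chr2:176129455-176129754 for HOXD8 and chr2:176116528-176116827 for HOXD10. The other 2 are from GRCh37, + strand, and are shown because they lay under H3K27Ac peaks of both guide RNAs. One is chr12:54401080-54401379, the middle 300 bases of a region upstream of HOXC8, and the other is chr12:54380967-54381199, the 233 bases that both lists share in an intron of HOXC10. Capitals mark CG dinucleotides, where cytosines can be methylated.
HOXC4 promoter: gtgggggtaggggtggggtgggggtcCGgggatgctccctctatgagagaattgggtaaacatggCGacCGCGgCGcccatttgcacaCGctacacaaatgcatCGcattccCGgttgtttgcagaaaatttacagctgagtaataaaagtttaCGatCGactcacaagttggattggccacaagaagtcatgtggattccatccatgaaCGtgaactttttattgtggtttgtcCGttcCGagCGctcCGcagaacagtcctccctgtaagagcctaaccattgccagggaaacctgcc
HOXD8 promoter: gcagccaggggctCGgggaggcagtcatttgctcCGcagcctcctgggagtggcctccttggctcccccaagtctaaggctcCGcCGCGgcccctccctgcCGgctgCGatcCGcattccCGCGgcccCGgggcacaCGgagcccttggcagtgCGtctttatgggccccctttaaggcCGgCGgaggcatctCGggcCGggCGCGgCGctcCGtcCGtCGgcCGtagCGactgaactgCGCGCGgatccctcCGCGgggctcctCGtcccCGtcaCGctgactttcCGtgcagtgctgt
HOXD10 promoter: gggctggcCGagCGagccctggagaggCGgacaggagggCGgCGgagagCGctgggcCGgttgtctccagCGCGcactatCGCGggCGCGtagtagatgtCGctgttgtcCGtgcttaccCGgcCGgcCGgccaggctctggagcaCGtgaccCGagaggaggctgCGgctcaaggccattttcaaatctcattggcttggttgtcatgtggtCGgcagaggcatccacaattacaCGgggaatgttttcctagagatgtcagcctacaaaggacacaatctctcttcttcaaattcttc
HOXC8 upstream: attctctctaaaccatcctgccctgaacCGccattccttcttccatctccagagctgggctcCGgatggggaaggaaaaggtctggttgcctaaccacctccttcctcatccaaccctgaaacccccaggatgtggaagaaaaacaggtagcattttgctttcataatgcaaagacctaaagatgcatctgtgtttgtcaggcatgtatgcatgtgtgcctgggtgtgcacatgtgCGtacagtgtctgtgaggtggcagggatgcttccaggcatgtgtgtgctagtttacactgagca
HOXC10 intron: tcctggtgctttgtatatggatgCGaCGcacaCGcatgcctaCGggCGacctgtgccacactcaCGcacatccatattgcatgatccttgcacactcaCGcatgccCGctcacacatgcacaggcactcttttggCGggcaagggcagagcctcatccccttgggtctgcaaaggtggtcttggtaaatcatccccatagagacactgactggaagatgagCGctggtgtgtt
CG occurred 15 times in the HOXC4 promoter, 34 times in that of HOXD8 and 23 times in that of HOXD10, and 3 times in the stretch upstream of HOXC8. The HOXC10 intron, which is shorter, had 10, or 4.29 per 100 bp, close to the 5.00 of the HOXC4 promoter.

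H3K27Ac was present at most of the 10 genes in both lists, in peaks no wider than 1059 bp. The highest peak of a member ranged up to percentile 90.8 of its list in sgNeg and 98.1 in sgNpm1A. A peak was found at 8 of the 10 in sgNeg and at 7 of the 10 in sgNpm1A, while 88.5% and 82.5% of all coding genes had one by the same rule. HOX genes are short, and among coding genes under 10 kb the shares were 71.8% and 62.3%, while among those of 10 to 50 kb, the class of the HOXC4, HOXC6, HOXD3 and HOXD10 records, they were 92.4% and 85.4%. The HOXC and HOXD members differed in count. All 5 HOXC members had a peak in both lists, against 3 of 5 HOXD members in sgNeg and 2 of 5 in sgNpm1A. This did not hold over the whole clusters in sgNeg, where 5 of 9 HOXC genes and 6 of 9 HOXD genes had a peak. In sgNpm1A the numbers were 9 of 9 and 3 of 9. The gene records used for HOXC6 and HOXC4 on GRCh37 are long, 40200 and 39100 bp. They overlap each other, and the HOXC6 record takes in HOXC8 and HOXC9. As a result, 7 of the 20 distinct member peaks in sgNeg and 5 of 19 in sgNpm1A counted at more than 1 member. Height was ranked within each list by fold enrichment, the ratio of fragments to those expected by the caller, and the percentile is the share of the list's peaks with a fold at or below it, with 0 for a gene that had no peak. No member reached the 99th percentile in either list, which 17.1% of coding genes did in sgNeg and 5.94% in sgNpm1A. Among coding genes under 10 kb 506 and 35 of 5254 did, and among those of 10 to 50 kb 1441 and 275 of 8114. No member peak was 2 kb wide or more, while 40.7% and 17.8% of coding genes had such a peak. In the 2 length classes the numbers were 1711 and 599 of 5254, and 3428 and 1569 of 8114. The median over the 10 genes of the highest percentile was 50.0 in sgNeg and 80.7 in sgNpm1A, beside 95.5 and 80.4 over all coding genes.

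**Figure D1:**
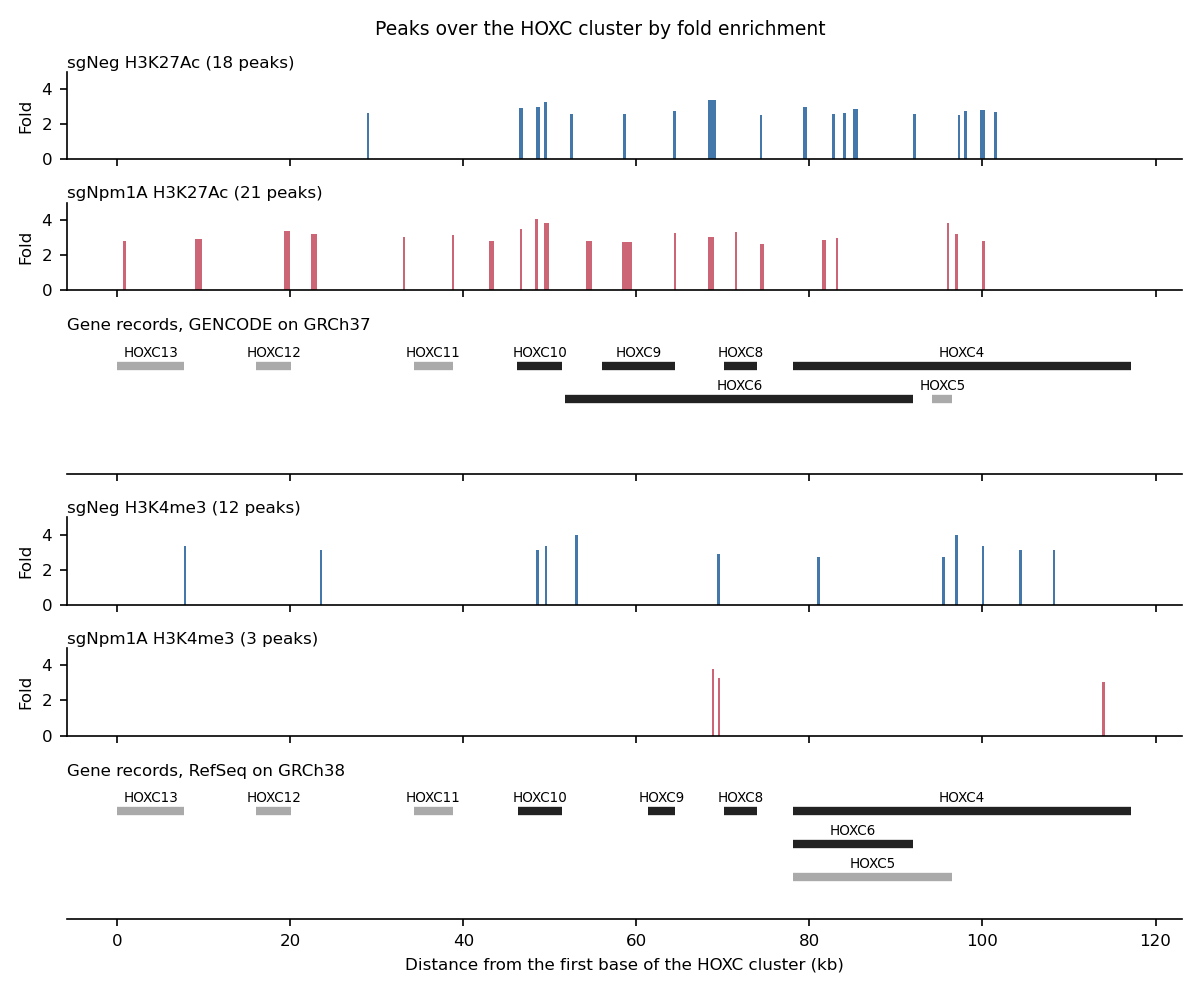
Peaks of the 4 lists over the HOXC cluster, by distance from the cluster's first base in kb (horizontal) and fold enrichment (vertical, linear from 0), with blue for sgNeg and red for sgNpm1A, and peaks under 0.3 kb drawn 0.3 kb wide. Gene records on each build are drawn beneath, members in black, and the tallest bar of the H3K27Ac panels stands at HOXC10 in sgNpm1A with 4.05-fold.

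HOXC10, which patterns the hindlimb and lumbar motor neurons in the embryo, carried H3K27Ac at the same positions in both lists. Its record spans chr12:54378849-54384063 on GRCh37, and 3 peaks lay there in each list, each overlapping a peak of the other. The first, from 234 to 690 bp past the start and over the coding sequence of the first exon, was 457 bp wide with 2.94-fold enrichment in sgNeg, and its counterpart in sgNpm1A was 233 bp wide with 3.47-fold. The second lay in the intron shown above and had 2.98-fold enrichment in sgNeg at percentile 73.4. In sgNpm1A it had 4.05-fold at percentile 98.1 and rank 6166, the highest member peak of the 4 lists by percentile. The third had 3.26-fold in sgNeg at percentile 88.3 and 3.81-fold in sgNpm1A at percentile 96.5. All 3 stood at a higher percentile in the sgNpm1A library than in the sgNeg library, where fold values are scaled within each list.

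HOXC8, a gene of thoracic patterning and of forelimb motor neuron identity, lay beside the highest member peak of sgNeg H3K27Ac. That peak, chr12:54400849-54401846, was 998 bp wide with 3.37-fold enrichment, percentile 90.8 and rank 30144 of 327715, and lay 1920 to 923 bp upstream of the HOXC8 start at 54402769. An overlapping peak in sgNpm1A was 776 bp wide with 3.03-fold enrichment at percentile 60.9 and ended 1159 bp before the start, so it fell just outside the 1 kb window. The loss of the HOXC8 start peak between the lists therefore rests on the edge of the window. In sgNpm1A a further peak of 280 bp lay in the HOXC8 intron with 3.34-fold enrichment at percentile 85.4, where sgNeg had none.

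HOXC6, which acts in thoracic and mammary development, held 9 peaks in sgNeg and 8 in sgNpm1A over its long record, chr12:54384408-54424607. Its highest sgNeg peak was the one upstream of HOXC8, and its single start peak was the narrowest member peak of that list at 114 bp, with 2.59-fold enrichment at percentile 17.9. HOXC9, which sets thoracic motor neuron identity, had 2 peaks in each list, both also counted at HOXC6. Its highest was 178 bp wide with 2.73-fold enrichment at percentile 42.9 in sgNeg and 165 bp with 3.26-fold at percentile 81.0 in sgNpm1A, over the end of the record and its UTR. The other HOXC9 peak was 155 bp wide in sgNeg and 1059 bp in sgNpm1A, the widest of the member peaks, although its percentile was only 20.1 and 18.4.

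HOXC4 has a known role in lymphoid cells, where its protein binds the gene of the antibody-diversifying enzyme AID. It had 9 sgNeg H3K27Ac peaks, all in introns and none within 1 kb of the start, with a highest fold of 2.98 at percentile 73.0 and a widest peak of 553 bp. In sgNpm1A it had 5 intron peaks with a highest fold of 3.82 at percentile 96.6 and rank 10799, in a peak of only 188 bp. This peak also lay in HOXC5 and was counted by the same rule at the microRNA gene MIR615, without its overlap with that gene being measured. That position had no peak in sgNeg. When the canonical transcript replaced the long record, HOXC4 and HOXC6 had no H3K27Ac peak in either list.

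**Figure D2:**
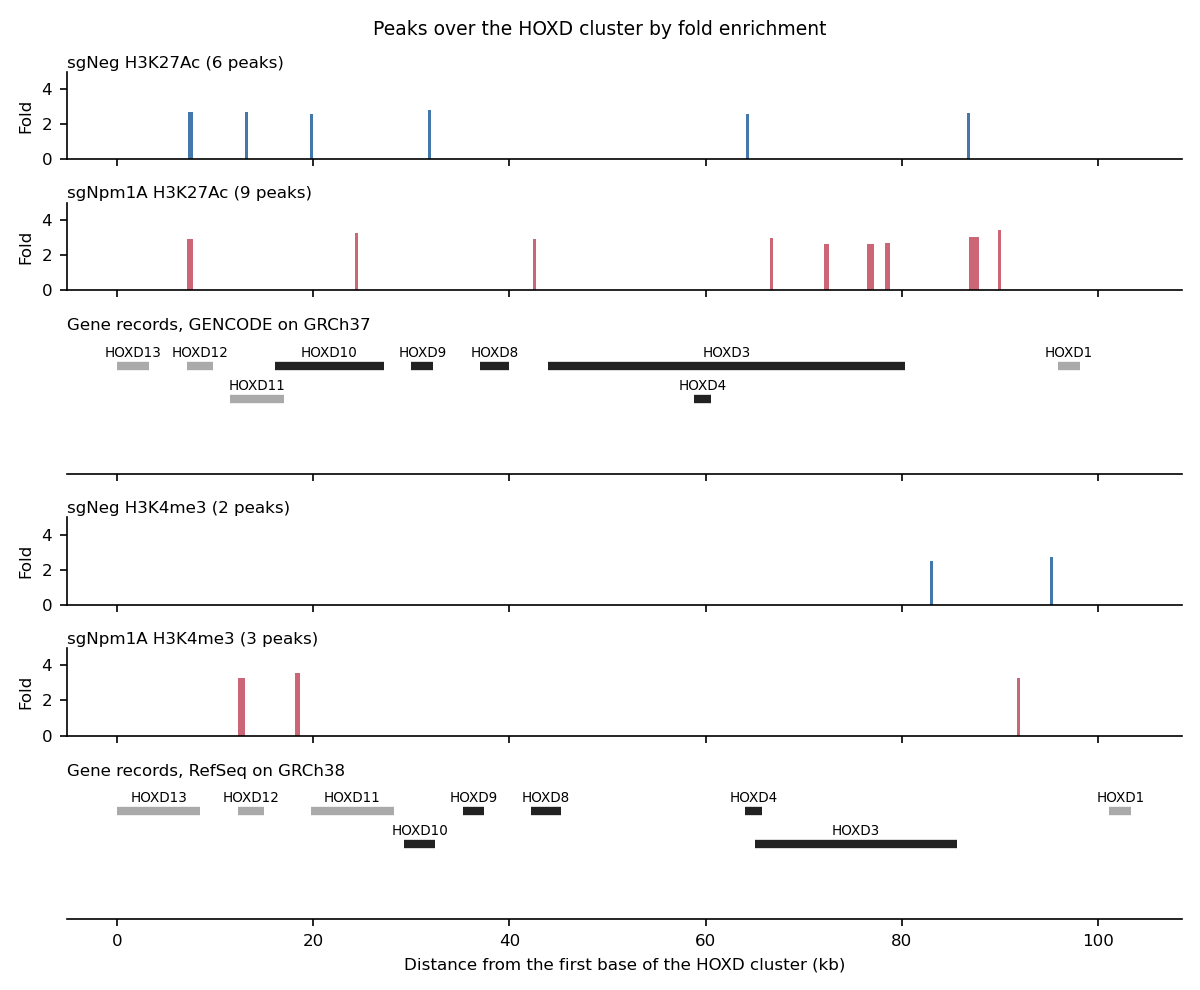
Peaks of the 4 lists over the HOXD cluster, drawn as for HOXC, with distance counted from the first base of the cluster's records on each build, which start at different bases of HOXD13. HOXD4 and HOXD8 have no bar over their records in any panel.

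The HOXD members showed less. HOXD4, a retinoic acid-responsive gene of the hindbrain and neck vertebrae, and HOXD8, a gene of the axial skeleton, had no peak in any of the 4 lists. HOXD9 and HOXD10 pattern the limb. HOXD9 (chr2:176987447-176989665) had 1 sgNeg H3K27Ac peak of 163 bp in its UTR, with 2.83-fold enrichment at percentile 57.1, and none in sgNpm1A. HOXD10 (chr2:176973518-176984665) had a 158 bp intron peak in sgNeg with 2.57-fold enrichment at percentile 12.9. In sgNpm1A its peak lay elsewhere, over the coding sequence, with 310 bp and 3.25-fold enrichment at percentile 80.3. HOXD3, which acts in neck vertebrae and in the endothelium, had a 120 bp peak in sgNeg with 2.58-fold enrichment at percentile 15.0. In sgNpm1A it had 4 peaks of 165 to 682 bp, of which the highest had 2.96-fold enrichment at percentile 52.6. None of the HOXD member peaks lay within 1 kb of the start of a long gene record, but the canonical transcripts of HOXD10 and HOXD3 start further in. Measured from those, the sgNpm1A peak of HOXD10 lay 164 to 473 bp past the start and the sgNeg peak of HOXD3 lay 379 to 260 bp before it. No HOXD member peak overlapped a peak of the other guide RNA. Of the HOXD genes that are not members, HOXD11, HOXD12 and HOXD13 had a sgNeg H3K27Ac peak, at percentiles 32.9, 36.7 and 84.5. Those of HOXD12 and HOXD13 lay within 1 kb of the start. In sgNpm1A HOXD12 alone of these had a peak, at percentile 49.7 for H3K27Ac and 34.8 for H3K4me3, and HOXD1 had none in any list.

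H3K4me3 was found at fewer of the genes. In sgNeg 5 of the 10 members had a H3K4me3 peak, against 85.8% of coding genes, 69.0% of those under 10 kb and 89.9% of those of 10 to 50 kb. In sgNpm1A 2 of the 10 had one, against 50.9%, 27.4% and 51.6%. A peak within 1 kb of the start of the gene record was found at 1 member, HOXC8, in both lists. Canonical transcript starts, which on GRCh37 lie further in for HOXC4 and HOXC6, were not applied to this mark. No member peak reached the 99th percentile, as 18.8% of coding genes did in sgNeg and 2.11% in sgNpm1A, and none was 2 kb wide, as 2.79% and 1.57% of coding genes had. Among coding genes under 10 kb, 752 and 24 of 5451 reached that percentile and 157 and 34 had such a wide peak. Among those of 10 to 50 kb, 1647 and 129 of 7985 reached it and 236 and 129 had such a wide peak. The gene records on GRCh38 are shorter for HOXC6, HOXC9, HOXD3 and HOXD10 than those used for H3K27Ac, so the counts of the 2 marks are not on the same gene bodies. The HOXC8 start peak spanned 730 to 562 bp upstream of its start in sgNeg, 169 bp with 2.91-fold enrichment at percentile 26.4. In sgNpm1A it was 254 bp wide with 3.31-fold at percentile 34.8, and it was the single H3K4me3 position in both clusters that the guide RNAs shared.

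The other H3K4me3 peaks lay within gene bodies. HOXC4 had 6 in sgNeg, and the highest of them, chr12:54035667-54036051 on GRCh38, was 385 bp wide with 3.95-fold enrichment, percentile 83.0 and a q-value of 9.84e-06 by the authors' caller. It lay more than 18 kb past the HOXC4 start, and no other member peak had a q-value as low in any of the 4 lists. In sgNpm1A HOXC4 had 1 peak, of 336 bp with 3.05-fold at percentile 16.4, whose distance from the canonical HOXC4 start was not measured. HOXC10 had 2 sgNeg peaks at percentiles 42.4 and 56.9 and no sgNpm1A peak. HOXC6 had 1 of 182 bp at percentile 11.8, shared with HOXC4, and HOXD3 had 1 of 121 bp at percentile 2.37, both in sgNeg alone. HOXC9, HOXD4, HOXD8, HOXD9 and HOXD10 had no H3K4me3 peak in either list.

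The promoter sequences allowed this to be set beside CpG content. RefSeq's table held 5 of the 10 promoters, those of HOXC4, HOXD3, HOXD4, HOXD8 and HOXD10. The HOXC5 and HOXC6 records on GRCh38 start at the same base as that of HOXC4, 54016888, so its promoter is not particular to HOXC4. CG occurred 4 times in the HOXD4 promoter and 15 to 34 times in the others of the 5, beside a median of 22 over 15843 coding promoters. None of the 5 starts had a H3K4me3 peak within 1 kb in sgNeg, while 66.4% of all coding promoters in the table and 72.2% of those with at least the 4 CG of HOXD4 had one. Among coding promoters with as many CG as HOXD8, 82.7% had such a peak. For the 9 HOXA promoters in the same table the count was 5 of 9. The motif TGATNNAT, which HOX proteins can bind together with cofactors, was searched on both strands and was in none of the 5 promoters and in neither of the H3K27Ac stretches shown above, while 4.99% of coding promoters held it. This says only that these letters were not in these windows.

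**Figure D3:**
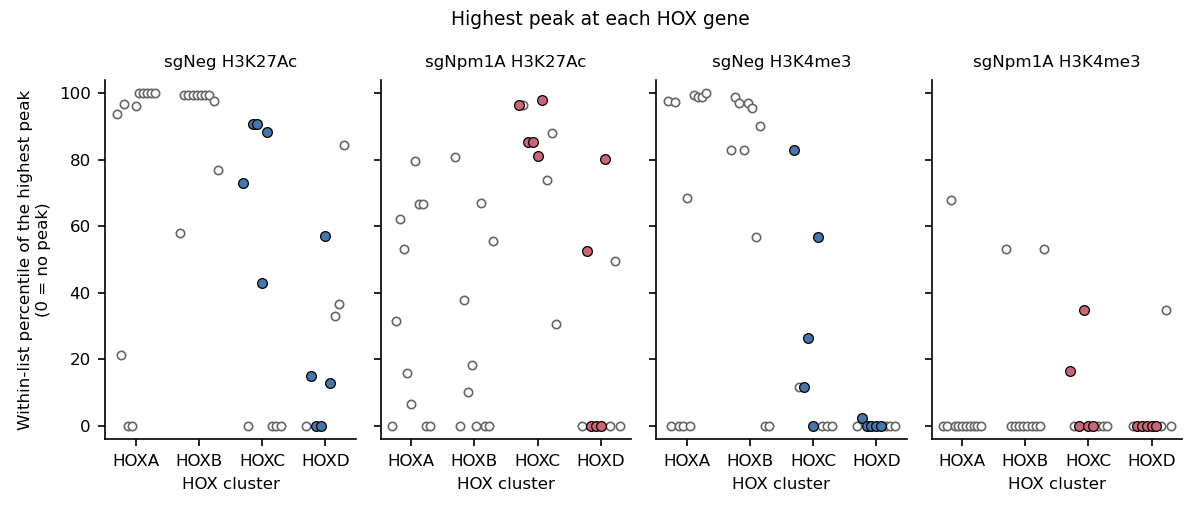
Within-list percentile of the highest peak at each HOX gene (vertical, 0 for no peak) by cluster, with 1 panel per list, members filled and other HOX genes open, ordered by paralog number within a cluster. In the sgNeg panels the filled points lie between 0 and 90.8 for H3K27Ac and between 0 and 83.0 for H3K4me3.

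Set beside the HOXA and HOXB genes, the members stood lower in both sgNeg lists. In sgNeg H3K27Ac, 5 of 11 HOXA genes and 7 of 10 HOXB genes were at or above the 99th percentile, against 0 of 10 members. In sgNeg H3K4me3 the counts were 4 of 11, 0 of 10 and 0 of 10, and the median percentile of the highest peak was 97.3 over the HOXA genes, 86.7 over the HOXB genes and 1.18 over the members. For H3K27Ac the 5 HOXA genes, HOXA7 to HOXA13, all had the same highest peak, at rank 39. HOXB2 to HOXB6 shared the peak at rank 2144, and HOXB7 and HOXB8 that at rank 1740. These genes are therefore not separate observations. Paralogs can be set side by side. HOXA9 and HOXA10 lay under a peak with 13.1-fold H3K27Ac enrichment at percentile 99.99, and HOXB9 had 4.64-fold, while HOXC9 and HOXD9 had 2.73-fold and 2.83-fold and HOXC10 and HOXD10 had 3.26-fold and 2.57-fold. HOXB4 had 6.32-fold and HOXB8 6.59-fold, against 2.98-fold at HOXC4, no peak at HOXD4, 3.37-fold at HOXC8 and no peak at HOXD8. HOXA4 and HOXA5 had no sgNeg H3K27Ac peak either, unlike the other HOXA genes.

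**Figure D4:**
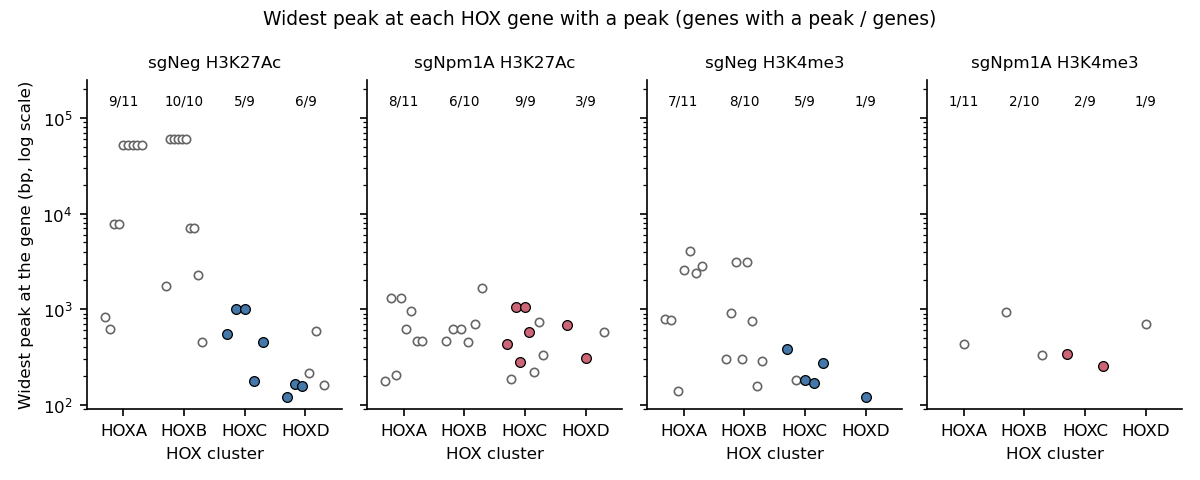
Width of the widest peak at each HOX gene that had a peak (vertical, bp, log scale) by cluster, with 1 panel per list, members filled, and genes with a peak of all genes in the cluster printed above. In sgNeg H3K27Ac the members reach 998 bp, while HOXA and HOXB genes reach 51584 and 59874 bp.

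In sgNpm1A the order was different. For H3K27Ac no HOX gene was at or above the 99th percentile, and the median percentile of the highest peak was 85.4 over the HOXC members, 0 over the HOXD members, 31.6 over the HOXA genes and 14.2 over the HOXB genes. The same median was 80.4 over all coding genes, 36.6 over those under 10 kb and 78.7 over those of 10 to 50 kb. The HOXC value is that of the 280 bp peak counted at both HOXC6 and HOXC8. All 9 HOXC genes had a peak in sgNpm1A, HOXC5, HOXC11, HOXC12 and HOXC13 included, whereas those 4 had none in sgNeg. Of all coding genes 82.5% had a peak in sgNpm1A, as did 62.3% of those under 10 kb, and 2.81% had one in sgNpm1A alone. The HOXC5 peak was the 188 bp peak already counted at HOXC4. Those of HOXC11, HOXC12 and HOXC13 stood at percentiles 74.1, 88.0 and 30.8. For H3K4me3 the sgNpm1A list had a peak at 2 of 5 HOXC members, 0 of 5 HOXD members, 1 of 11 HOXA genes and 2 of 10 HOXB genes. The share was 50.9% over coding genes and 27.4% over those under 10 kb.

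Between the guide RNAs, H3K27Ac at the 10 members moved in both directions. At 7 members both lists had a peak, at HOXD9 the sgNeg list alone, and at HOXD4 and HOXD8 neither, and the shares over coding genes were 79.7% in both, 8.83% in sgNeg alone, 2.81% in sgNpm1A alone and 8.70% in neither. The highest peak stood at a higher percentile in sgNpm1A at 5 of the 10, HOXC4, HOXC9, HOXC10, HOXD3 and HOXD10, and lower at HOXC6, HOXC8 and HOXD9. HOXC6 and HOXC8 had the same highest peak in each list, 3.37-fold in sgNeg and 3.34-fold in sgNpm1A, so they are not separate observations. Over coding genes 29.7% were higher in sgNpm1A and 61.6% lower. More of the gene body lay under peaks in sgNpm1A at 5 of 10 members, beside 31.7% of coding genes. A lower percentile in sgNpm1A was found at 8 of 11 HOXA genes, or 72.7%, and at 9 of 10 HOXB genes. Many of these genes shared a sgNeg peak, as given above, and no test of the difference between the clusters was made. For H3K4me3, 2 members had a peak in both lists, 3 in sgNeg alone and 5 in neither, where the coding-gene shares were 50.1%, 35.6% and 13.5%. None of the 10 had one in sgNpm1A alone, as 0.747% of coding genes did. Only HOXC8 stood at a higher percentile in sgNpm1A, beside 10.1% of coding genes, and at 0 of 10 was more of the body under peaks, beside 8.23%.

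**Figure D5:**
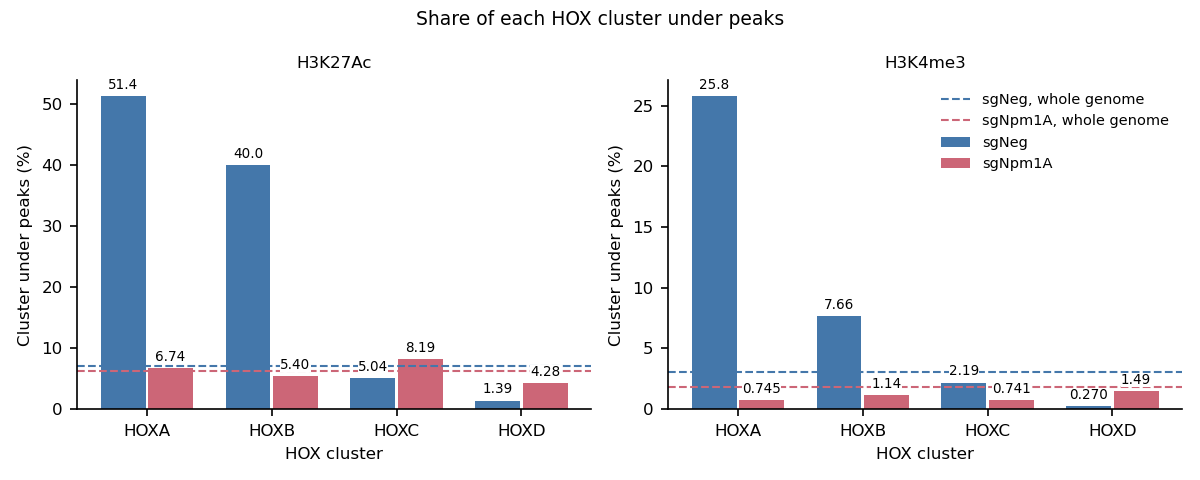
Share of each HOX cluster's bases under peaks (vertical, percent, linear from 0) in sgNeg (blue) and sgNpm1A (red), with dashed lines for the share of the whole genome in the same list. The HOXC and HOXD bars lie below the genome line in every list except sgNpm1A H3K27Ac over HOXC, at 8.19%.

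The share of each cluster under peaks was then compared with that of the genome. The HOXC cluster, chr12:54332615-54449814 on GRCh37, was 5.04% under H3K27Ac peaks in sgNeg, 0.709 times the genome share of 7.11%, and 8.19% in sgNpm1A, 1.30 times the genome share of 6.29%. The HOXD cluster, chr2:176957449-177055635, was 1.39% and 4.28% under peaks, 0.195 and 0.682 times the genome share. For H3K4me3 on GRCh38 the HOXC cluster, chr12:53938831-54056030, was 2.19% under peaks in sgNeg and 0.741% in sgNpm1A, 0.720 and 0.413 times the genome shares of 3.03% and 1.79%. The HOXD cluster, chr2:176087487-176190907, was 0.270% and 1.49% under peaks, 0.0889 and 0.832 times the genome share. The HOXA cluster in the sgNeg lists was at 7.22 times the genome share for H3K27Ac and 8.51 times for H3K4me3, and the HOXB cluster at 5.63 and 2.53 times. In sgNpm1A these 2 clusters were at 1.07 and 0.859 times for H3K27Ac and 0.416 and 0.634 times for H3K4me3. Against the share of its own chromosome, the sgNeg H3K27Ac ratio was 5.63 for HOXA, 2.69 for HOXB, 0.877 for HOXC and 0.242 for HOXD. For sgNeg H3K4me3 it was 5.41, 1.20, 1.12 and 0.156, so HOXB and HOXC lay close together on this denominator.

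Peaks in the HOXC cluster were denser than over the genome for H3K27Ac and sparser for H3K4me3. There were 18 in sgNeg H3K27Ac, or 15.4 per 100 kb beside 10.6 over the genome, and 21 in sgNpm1A, or 17.9 beside 10.2. In the HOXD cluster there were 6 and 9, or 6.11 and 9.17 per 100 kb. The widest H3K27Ac peaks in the HOXC cluster measured 998 bp (sgNeg) and 1059 bp (sgNpm1A), and those in the HOXD cluster 591 and 1083 bp. H3K27Ac peaks in HOXC had a median width of 226.5 bp (sgNeg) and 333 bp (sgNpm1A), beside 358 and 415 bp over each list. None of the H3K27Ac peaks in either cluster had a q-value under 1e-05, but only 2.88% of all sgNeg and 0.908% of all sgNpm1A peaks did. The H3K4me3 lists had 12 and 3 peaks in the HOXC cluster, or 10.2 and 2.56 per 100 kb beside 11.5 and 3.45 over the genome. Their median width was 205.5 and 278 bp, beside 192 and 407 bp. In the HOXD cluster there were 2 and 3 H3K4me3 peaks, or 1.93 and 2.90 per 100 kb. Of the 18 sgNeg H3K27Ac peaks in HOXC 50.0% overlapped a sgNpm1A peak, beside 50.7% over the genome, and of the 21 sgNpm1A peaks 42.9% overlapped a sgNeg peak, beside 51.4%. In HOXD 2 positions were shared, 33.3% of the sgNeg and 22.2% of the sgNpm1A peaks, at HOXD12 and in the noncoding gene HAGLR.

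The DNA around the clusters was also thinly covered. Within 100 kb on either side, 2.53% of the bases near HOXC and 1.32% near HOXD were under sgNeg H3K27Ac peaks, both below the genome share, and 4.45% and 1.38% were in sgNpm1A. This was not particular to HOXC and HOXD, as the shares near HOXA and HOXB were 8.25% and 2.81% in sgNeg and 3.27% and 5.08% in sgNpm1A. The nearest coding genes outside the HOXC and HOXD clusters were marked all the same. Of the 5 nearest non-HOX coding genes on each side, 10 of 10 near HOXC and 8 of 10 near HOXD had a sgNeg H3K27Ac start peak, and 7 and 9 of 10 had a sgNeg H3K4me3 start peak. CBX5, which encodes the heterochromatin protein HP1-alpha, and the neighbouring HNRNPA1 lay under a peak with 6.53-fold H3K27Ac enrichment at percentile 99.4. EVX2, a homeobox gene at the end of the HOXD cluster, had no peak in any list. In the sgNpm1A lists none of these 20 neighbours had a start peak for either mark, which is the same direction as the lower share of start peaks over the genome.

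Noncoding genes within the 2 clusters were also examined. Of 10 such genes, 6 had a H3K27Ac peak in each list and 4 and 1 had a H3K4me3 peak. HOTAIR, a long noncoding RNA transcribed from the HOXC cluster, had a 2.64-fold H3K27Ac peak at percentile 25.9 in sgNeg and a 3.02-fold peak at percentile 60.3 in sgNpm1A. MIR196A2, the gene of a microRNA that targets HOX transcripts, had a sgNeg H3K4me3 start peak of 231 bp with 3.95-fold enrichment at percentile 83.0. MIR10B, between HOXD4 and HOXD8, had none in any list. MEIS1, the HOX cofactor gene named above, lies outside the clusters and had 6.52-fold H3K27Ac enrichment at percentile 99.4 in a sgNeg peak of 19181 bp. In sgNpm1A its highest H3K27Ac peak had 3.74-fold enrichment at percentile 95.7.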

How the data were processed

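ChIPmentation was done in OCI-AML3 cells with 1 library per guide RNA and mark. Per the labels, bcl2fastq 2.17, Trimmomatic 0.33, Bowtie 1.1.2, MACS2 2.1.0 and deepTools were used, with hg38 as the only build. Chromosome ends placed the H3K27Ac broad peaks on GRCh37 (last chromosome 1 end 249218478) and the H3K4me3 narrow peaks on GRCh38 (last chromosome 17 end 83201881). No coordinates were converted. The authors called peaks per library. Whether inputs entered the calling, and its limit, is not given in the sources used here. The largest q-values were 0.0707 and 0.0437 (sgNeg, sgNpm1A H3K27Ac) and 0.0308 and 0.0226 (H3K4me3).

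The authors' fold enrichment is a ratio of observed to expected pileup. Narrow peaks (H3K4me3) give it at the summit and broad peaks (H3K27Ac) as a regional average. A −log10 p-value and a −log10 q-value were deposited for each peak. The deposited score repeats the q-value and was not used. Read depth is unknown, so no interval is given.

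Gene bodies came from GENCODE on GRCh37 and a RefSeq table on GRCh38, where 19675 of 20037 coding records had a strand. Genome shares used GRCh37 chromosome lengths and, on GRCh38, the last gene or peak end, gaps included. Peaks were ranked by fold within a list. Python 3.11.15 with pandas 2.3.3 and numpy 2.4.6 was used, the overlap rule was checked against bedtools 2.31.1, and the alternatives were stricter peak limits, other overlap and start rules, and other denominators. The members and lists were chosen with earlier results of these data known. All members are named, with the other HOX genes of their clusters, their paralogs, neighbours, noncoding genes and MEIS1 named from lists. A list of cofactor genes is not reported here.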

Additional observations from a re-analysis of the deposited data

How the results depend on the processing

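No paired analysis was possible because each group had 1 library and no result came from a test. Leaving out a replicate was not possible for the same reason. Of the 10 members, the numbers with a peak in sgNeg H3K27Ac, sgNpm1A H3K27Ac, sgNeg H3K4me3 and sgNpm1A H3K4me3 (8, 7, 5 and 2) fell to 0, 0, 1 and 0 with a q-value under 1e-05, to 0, 1, 0 and 0 with a fold of at least 4, to 0, 2, 0 and 0 in the 20000 peaks of lowest p-value, and to 3, 1, 1 and 1 within 1 kb of the start alone. A q-value under 0.01 left 3 in sgNeg H3K27Ac and 3 in sgNeg H3K4me3, 200 bp of overlap left 3 and 2, the canonical transcript left 5 in sgNeg H3K27Ac, and the gene body alone left 1 in sgNpm1A H3K4me3. Members with a peak in sgNeg and none in sgNpm1A numbered 0 for H3K27Ac under all the peak limits and the 200 bp overlap, and 2 at the start alone. For H3K4me3 they numbered 1 with a q-value under 0.01 or 1e-05 or 200 bp of overlap, and 0 with a fold of at least 4, in the 20000 peaks or at the start alone. The ratio of the HOXC share to the genome share was 0.359 with a q-value under 0.01 in sgNeg H3K27Ac and 0.432 under 1e-05 in sgNeg H3K4me3. It crossed 1 in sgNpm1A H3K27Ac, where no peak was left under 1e-05 and the ratio was 0, and in sgNeg H3K4me3 against its own chromosome, at 1.12. In sgNpm1A H3K4me3 it was 0.836 against its own chromosome. The HOXD ratio was 0.167 with a q-value under 0.01 in sgNpm1A H3K27Ac and 0 in both sgNeg lists. Against its own chromosome it was 0.156 in sgNeg H3K4me3 and crossed 1 in sgNpm1A H3K4me3, at 1.53. In the remaining strict settings that moved it, both ratios were 0. The members' median percentile by width was 22.9, 45.4 and 5.17 in sgNeg H3K27Ac, sgNpm1A H3K27Ac and sgNeg H3K4me3, and 0 at the start alone. Another 44 alternative values that answer a comparison stayed near the reported ones. Whether a cluster lay above or below the genome share thus depended on the peak limit for HOXC in sgNpm1A H3K27Ac, and on the denominator for HOXC in sgNeg H3K4me3 and HOXD in sgNpm1A H3K4me3.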
